A study of Mus musculus with 6 samples.

Results

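Interferon regulatory factors (IRFs) are transcription factors that share a tryptophan-rich DNA-binding domain and read GAAA-containing elements in the promoters of interferon and interferon-stimulated genes. The members described here are the 8 genes Irf1, Irf2, Irf3, Irf4, Irf5, Irf7, Irf8 and Irf9, chosen by symbol from a table of 54532 genes. Of these, 7 passed the filter on low values, 0.5 FPKM (reads per kilobase of gene length, scaled between libraries) or more in at least 3 of 6 libraries, and were among the 12618 genes tested. Irf4 did not pass it.

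RNA sequencing was done on primary brain microvascular endothelial cells, the lining cells of brain capillaries, grown from vessel fragments of wild-type C57BL/6J mice under puromycin and then cultured to confluence. The 3 IL-36β libraries came from cells given processed DEVD mIL-36β at 100 ng/ml for 24 h, and the 3 untreated libraries from cells without it. This IL-1 family cytokine signals through MyD88. Neither a vehicle nor a time is given for the untreated cells, so time in culture and IL-36β cannot be told apart. The labels do not say whether replicates were separate animals or cultures, so every p-value rests on the spread among these 6 libraries, which may be technical.

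Between 15180389 and 19544689 reads were assigned to genes per library. All 10 endothelial markers were measured, with a summed level of 2112 to 2855 FPKM in IL-36β and 2022 to 2405 FPKM in untreated libraries. Of these 10, 8 had a fitted difference above 0 (median log2 difference 0.21). No endothelial marker passed in limma or edgeR, and DESeq2 called Cldn5 higher, where it called 2.1% of all genes in either direction. Of 6 pericyte and smooth muscle markers 4 were measured, all with a fitted difference below 0 (median log2 difference -0.32), and their summed level was 347 to 779 FPKM in IL-36β and 389 to 1333 FPKM in untreated libraries. None passed in limma or edgeR, and DESeq2 called Myh11 lower (adjusted p = 0.00447). Most of that sum was Acta2, smooth muscle actin, at 340, 772 and 498 FPKM in IL-36β replicates 1 to 3 and 378, 675 and 1323 FPKM in untreated replicates 1 to 3, so untreated replicate 3 stood apart. Libraries named with the letters A and B (IL-36β replicate 1, untreated replicates 1 and 2) differed from those named D and E (IL-36β replicates 2 and 3, untreated replicate 3) in 1.74% of genes tested, so values within each set are given beside the pooled ones. The sets were picked with the values known, which may make p-values and intervals that use them too favourable.

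As background, the family divides by role. Irf3 and Irf7 are activated by the kinases TBK1 and IKKε and switch on interferon-β, Irf5 acts below the adaptor MyD88 on inflammatory cytokine genes, and Irf9 is the subunit that brings the complex ISGF3 to DNA. Irf1 is an activator whose own gene is induced by interferon-γ and by NF-κB, and Irf2 competes with it for the same sites. Irf4 and Irf8 are best known from lymphoid and myeloid cells, where they pair with PU.1, the product of Spi1. Much of this activity is set by phosphorylation, which transcript levels do not measure.

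Irf1 and Irf5 had the largest differences between the groups, each higher in every IL-36β library than in any untreated library. Irf3 was also higher in every IL-36β library, by a smaller margin. Irf2, Irf7, Irf8 and Irf9 overlapped between the groups, and Irf4 was barely detected. No member passed the threshold over all genes tested (limma, Benjamini-Hochberg adjusted p under 0.05), where 0.182% of genes passed, and none passed with edgeR, where 0.293% did. DESeq2 on the recovered reads called 2 members, Irf1 and Irf5, both higher, against 2.1% of genes called. At an unadjusted limma p under 0.05 there were 3 members, Irf1, Irf3 and Irf5, all higher, beside 10.4% of genes in either direction and 5.96% with IL-36β higher. These same 3 members did not overlap between the groups, with IL-36β higher, which was so for 8.95% of genes tested. No member was lower in every IL-36β library, which was so for 7.24% of genes.

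**Figure D1:**
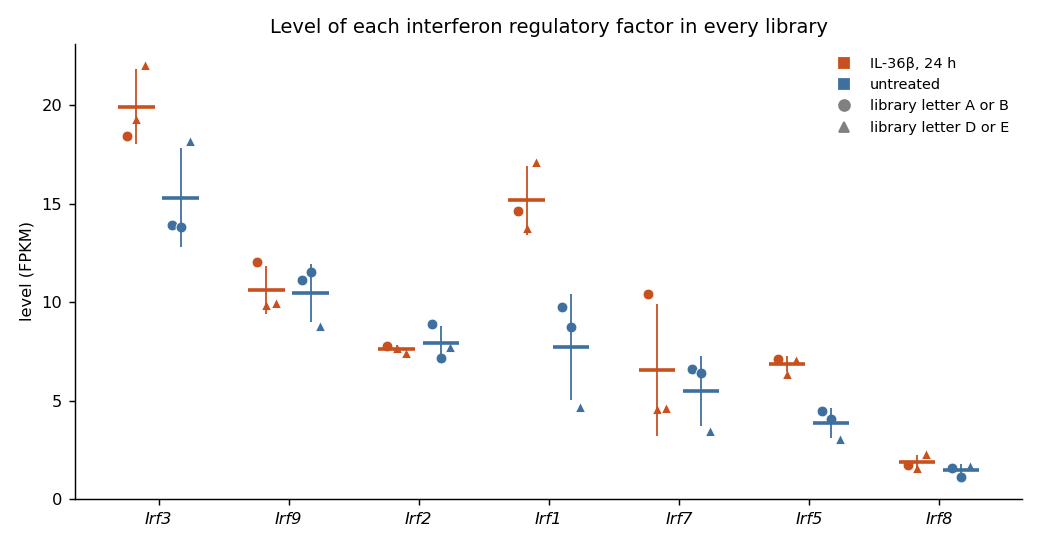
Level in FPKM of the 7 members that passed the filter, in each of the 6 libraries; points are libraries (circles, letters A and B; triangles, letters D and E), horizontal bars are means and vertical bars are SD (n = 3 per group). For Irf1 the IL-36β libraries lie at 13.8 to 17.1 FPKM, all above the untreated libraries at 4.69 to 9.77 FPKM, while for Irf2 and Irf9 the groups overlap.

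Irf1, the activator of the family (ENSMUSG00000018899, chromosome 11, 53770014 to 53778374, plus strand, GRCm38), was measured at 14.6, 13.8 and 17.1 FPKM in IL-36β replicates 1 to 3, against 9.77, 8.73 and 4.69 FPKM in untreated replicates 1 to 3. The lowest IL-36β library stood above the highest untreated library, and untreated replicate 3 was the lowest of all 6. These values rest on 902, 901 and 1239 reads with IL-36β and 631, 703 and 287 reads without. The mean was 15.2 ± 1.74 FPKM with IL-36β and 7.73 ± 2.68 FPKM in untreated cells (SD, n = 3 each), a 1.98-fold difference on the log2(FPKM + 0.5) scale whose 95% confidence interval ran between 1.32 and 2.95. The limma adjusted p was 0.240, and DESeq2 gave an adjusted p of 0.00484. Within the libraries A and B the difference was 1.55-fold, and within D and E, where untreated replicate 3 is the only untreated library, it was 3.06-fold. Without untreated replicate 3, the library with the highest Acta2, it was 1.60-fold; the part of that library's smooth muscle transcripts in the result was not tested. In bulk RNA, more transcript per cell and more cells with the transcript cannot be told apart, here and in what follows.

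The bases upstream of the start were searched for matches to 3 motifs. Irf1, Irf2 and Irf5 are given because Irf1 and Irf5 had the largest differences while Irf2 overlapped between the groups. Each run is the 250 bases before the RefSeq transcript start (GRCm38.p6, 5′ to 3′ on the gene's strand), at chr11:53769764-53770013, chr8:46739495-46739744 and chr6:29526375-29526624, all on the plus strand. Capitals mark matches to 3 motifs searched on both strands: the IRF element (2 copies of GAAA with any 2 bases between them), the interferon-γ-activated site TTCNNNGAA (called GAS) and the κB consensus, which NF-κB binds.
Irf1: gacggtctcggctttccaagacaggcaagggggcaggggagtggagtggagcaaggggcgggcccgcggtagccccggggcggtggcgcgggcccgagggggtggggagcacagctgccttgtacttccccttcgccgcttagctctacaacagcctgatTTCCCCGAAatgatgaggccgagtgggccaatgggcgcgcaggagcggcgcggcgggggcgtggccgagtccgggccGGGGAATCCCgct
Irf2: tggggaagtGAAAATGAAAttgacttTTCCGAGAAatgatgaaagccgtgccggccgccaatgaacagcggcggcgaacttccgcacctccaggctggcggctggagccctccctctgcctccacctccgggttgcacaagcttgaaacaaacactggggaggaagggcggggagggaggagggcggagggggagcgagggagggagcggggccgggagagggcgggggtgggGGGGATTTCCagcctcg
Irf5: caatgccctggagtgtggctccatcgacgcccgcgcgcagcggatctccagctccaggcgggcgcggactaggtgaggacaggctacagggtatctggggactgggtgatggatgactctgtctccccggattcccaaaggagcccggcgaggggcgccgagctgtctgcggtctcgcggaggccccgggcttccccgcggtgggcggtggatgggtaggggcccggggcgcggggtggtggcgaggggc
Irf1 had the GAS match TTCCCCGAA at 90 to 82 bases and the κB match GGGGAATCCC at 13 to 4 bases before its start. Irf2 had a match to all 3 motifs, with the IRF element GAAAATGAAA at 241 to 232 bases, the GAS TTCCGAGAA at 224 to 216 bases and the κB match GGGGATTTCC at 17 to 8 bases. A κB match close to the start was thus present in both Irf1 and Irf2. Irf5 had none of the 3 in its 250 bases.

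Among the 11 windows of the 8 members (Irf1, Irf8 and Irf9 have more than 1 start), 1 held the IRF element, 3 a GAS and 2 a κB match. Over 32851 RefSeq windows of this length the shares were 2.98% for the IRF element, 7.02% for GAS and 7.25% for κB. Irf8 held 2 GAS matches, at 171 to 163 and 153 to 145 bases before its first start. No motif overlapped another. The windows of Irf9, and those of the later starts of Irf1 and Irf8, lie inside the annotated span of the gene. They do not cover the bases before that span. A match says only that these letters are present.

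**Figure D2:**
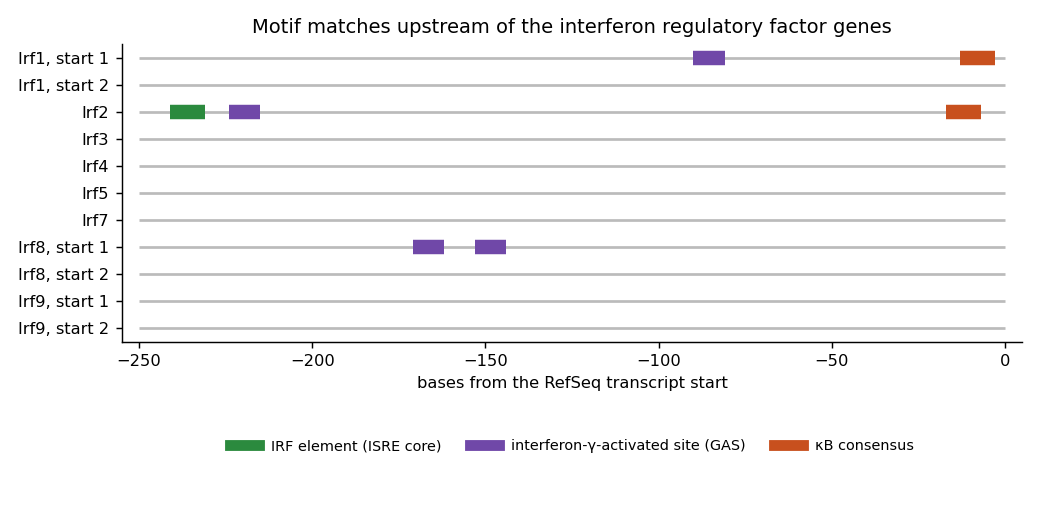
Position of motif matches in the 250 bases before each RefSeq start of the 8 members, in bases from the start; each grey line is 1 start and each coloured block 1 match. The κB matches of Irf1 (13 to 4 bases) and Irf2 (17 to 8 bases) lie close to the start, and the windows of Irf3, Irf4, Irf5, Irf7 and Irf9 hold none. The Irf9 windows lie inside the annotated span of that gene.

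Irf2, the antagonist of Irf1 (ENSMUSG00000031627, chromosome 8, 46739732 to 46847458, plus strand), stood at 7.80, 7.66 and 7.44 FPKM in IL-36β libraries, against 8.87, 7.15 and 7.71 FPKM in untreated libraries. It varied least of the 7 members, with an SD of 0.10 over the 6 libraries on the log2(FPKM + 0.5) scale, against 0.64 for Irf1. The fold was 0.97 (95% interval 0.82 to 1.15, limma adjusted p = 0.903). Within each set of libraries the fold was 0.98.

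Because a ratio within a library does not depend on how libraries are scaled, the balance of Irf1 and Irf2 was compared directly. The ratio of their FPKM was 1.87, 1.80 and 2.30 in IL-36β replicates 1 to 3, against 1.10, 1.22 and 0.609 in untreated replicates 1 to 3. By FPKM, Irf1 exceeded Irf2 in every IL-36β library, and in untreated replicate 3 it was the lower of the pair. Which gene is higher depends on the gene lengths used, while the difference in log2 ratio between the groups does not. Scaled to the length of the longest coding transcript, the untreated mean was 14.4 FPKM for Irf1 and 23.4 FPKM for Irf2. The mean ratio was 1.99 ± 0.271 with IL-36β and 0.977 ± 0.325 in untreated cells (SD, n = 3 each). The difference in log2 ratio was 1.08 (exact permutation test, two-sided, p = 0.1, the smallest that 3 against 3 can give). It was 0.69 within A and B and 1.74 within D and E.

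Irf5, which acts below MyD88 (ENSMUSG00000029771, chromosome 6, 29526625 to 29541871, plus strand), was 7.12, 6.36 and 7.04 FPKM with IL-36β, against 4.49, 4.06 and 3.02 FPKM in untreated cells. The 3 IL-36β values lay close together and above every untreated value, and untreated replicate 3, which had the highest Acta2, was again the lowest. The reads behind them were 321, 304 and 372 with IL-36β and 212, 239 and 135 without. Irf5 averaged 6.84 ± 0.415 FPKM with IL-36β and 3.86 ± 0.756 FPKM in untreated cells (SD, n = 3 each), a 1.70-fold difference (95% confidence interval 1.34 to 2.15; limma adjusted p = 0.131). DESeq2 called it (adjusted p = 0.00440). With the library set as a term it was 1.81-fold higher (1.47 to 2.21) and the only member that passed (limma adjusted p = 0.0403, in a model that called 0.808% of genes), and it was 1.60-fold within A and B and 2.04-fold within D and E. Without untreated replicate 3 the log2 difference was 0.62, against 0.77 with it. The last 1045 bases of Irf5 overlap Tnpo3, an importin gene on the opposite strand, and whether reads were counted by strand is not stated. Tnpo3 was 6.37 ± 0.500 FPKM with IL-36β and 7.45 ± 0.694 FPKM in untreated cells (SD, n = 3 each; limma adjusted p = 0.559), opposite in sign to Irf5.

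Irf3, the constitutive factor that TBK1 activates (ENSMUSG00000003184, chromosome 7, 44997648 to 45002848, plus strand), was the most abundant member in both groups. It stood at 18.4, 19.3 and 22.1 FPKM with IL-36β, against 13.9, 13.8 and 18.2 FPKM in untreated cells. The groups were separated by little, since untreated replicate 3 came close to IL-36β replicate 1. The difference was 1.30-fold (1.05 to 1.61; limma adjusted p = 0.405), 1.32-fold within A and B and 1.13-fold within D and E. Irf3 overlaps Bcl2l12 on the opposite strand by 1065 bases, and Bcl2l12 was 3.17 ± 0.624 FPKM with IL-36β and 2.47 ± 0.373 FPKM in untreated cells (limma adjusted p = 0.573).

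**Figure D3:**
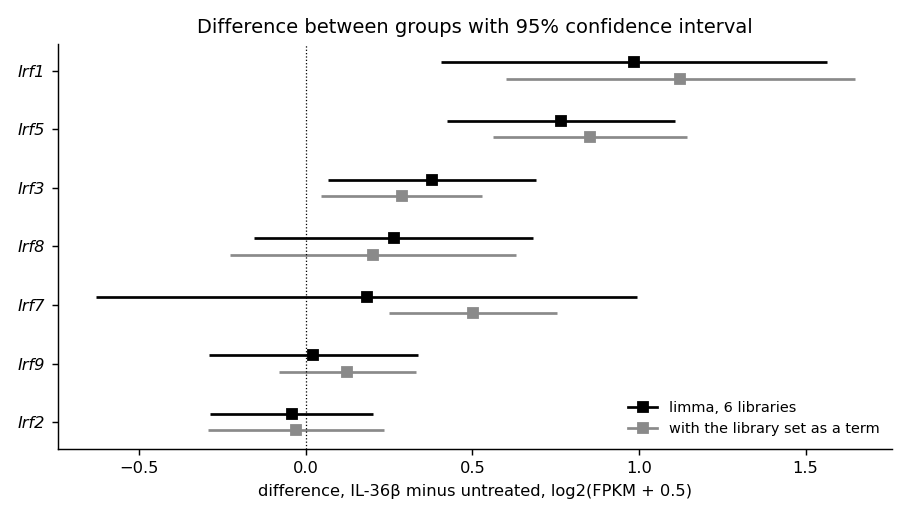
Difference of mean log2(FPKM + 0.5), IL-36β minus untreated, with 95% confidence intervals from limma, for the 7 members tested; black is the fit without and grey the fit with the library set as a term. The intervals of Irf1, Irf5 and Irf3 lie above 0 in both fits, that of Irf7 only with the set as a term, and none of the 7 passed after adjustment without the set term.

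Irf7, the inducible amplifier of type I interferon (ENSMUSG00000025498, chromosome 7, 141262706 to 141266481, minus strand), differed more between the sets of libraries than between the groups. It was 10.4, 4.56 and 4.63 FPKM with IL-36β, against 6.60, 6.39 and 3.46 FPKM in untreated cells. IL-36β replicates 2 and 3 lay below untreated replicates 1 and 2, yet in each set the IL-36β libraries lay above the untreated ones. Libraries D and E had 0.51 times the level of A and B (limma adjusted p = 0.0111), the only member to pass in that comparison. The pooled difference was 1.13-fold (0.65 to 1.99; limma adjusted p = 0.871). It was 1.56-fold within A and B and 1.29-fold within D and E, and with the set as a term 1.42-fold (1.19 to 1.69; limma adjusted p = 0.118). Without IL-36β replicate 1 the pooled log2 difference turned to -0.18, and without untreated replicate 3 to -0.09. Irf7 shares 45 bases with Phrf1 on the opposite strand, which was 7.65 ± 0.504 FPKM with IL-36β and 7.49 ± 0.464 FPKM in untreated cells (SD, n = 3 each).

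Irf9, the DNA-binding subunit of ISGF3 (ENSMUSG00000002325, chromosome 14, 55603571 to 55610030, plus strand), was 12.04, 9.88 and 9.94 FPKM with IL-36β, against 11.1, 11.5 and 8.79 FPKM in untreated cells. The pooled groups overlapped, with a fold near 1 and a 95% interval of 0.82 to 1.26 (limma adjusted p = 0.966). Irf9 shares 123 bases with Rnf31 on the same strand, which was 6.24 ± 0.741 FPKM with IL-36β and 5.53 ± 0.368 FPKM in untreated cells (SD, n = 3 each). Stat2, the ISGF3 partner of Irf9, overlapped between the pooled groups as well. Stat2 was 11.7, 8.61 and 8.46 FPKM with IL-36β and 10.2, 9.42 and 6.05 FPKM in untreated cells. For both genes untreated replicate 3 and IL-36β replicate 1 were the lowest and the highest library. Stat2 did not pass (1.13-fold, limma adjusted p = 0.793).

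Irf8, a myeloid factor (ENSMUSG00000041515, chromosome 8, 120736358 to 120756694, plus strand), was present at a low level in every library. It was 1.72, 1.57 and 2.28 FPKM with IL-36β, against 1.57, 1.12 and 1.70 FPKM in untreated cells, from 160 to 292 reads per library. The groups overlapped, with a 1.20-fold difference (0.90 to 1.60; limma adjusted p = 0.629). Defining microglia and macrophage markers were at or near 0. Of 17 such markers 2 were measured, Cd68 and Lyz2; 7 had no read in any library, among them Spi1, Tyrobp, Adgre1 and C1qa, and Ptprc had 3 reads in all IL-36β and 10 in all untreated libraries. The summed level of the list was 7.38 to 9.64 FPKM with IL-36β and 7.72 to 8.49 FPKM in untreated cells, most of it Cd68, a lysosomal protein that is not restricted to myeloid cells, at 7.58 ± 1.51 and 7.20 ± 0.427 FPKM with IL-36β and without. Lyz2, the other measured marker, was lower with IL-36β at an unadjusted limma p under 0.05. Neither marker passed after adjustment in limma, edgeR or DESeq2. The annotated gene Gm20388 spans all of Irf8 on the same strand and had no read.

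Irf4, a lymphoid factor (ENSMUSG00000021356, chromosome 13, 30749226 to 30766976, plus strand), had 2, 2 and 5 reads in IL-36β libraries, against 3, 1 and 0 reads in untreated libraries. These counts, 9 and 4 in all, are too few to show a difference. B and T cell markers were likewise near 0, with at most 3 reads per IL-36β library and 9 per untreated library over 6 markers.

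By mean FPKM, a per-length level, the order with IL-36β was Irf3, Irf1, Irf9, Irf2, Irf5, Irf7, Irf8 and Irf4, and only Irf5 and Irf7 overlapped among neighbours. In untreated cells the order was Irf3, Irf9, Irf2, Irf1, Irf7, Irf5, Irf8 and Irf4, with Irf9 and Irf2, Irf2 and Irf1, Irf1 and Irf7, and Irf7 and Irf5 overlapping. The mean of Irf1 was directly below that of Irf3 with IL-36β. In untreated cells its mean was also below those of Irf9 and Irf2, but Irf1 was below Irf2 in only 1 of 3 libraries, untreated replicate 3. The gene lengths in the table exceed those of single transcripts: for Irf2 it was 7396 bases, where the longest coding transcript of GENCODE M21 has 2497, and for Irf7 it was 3776 bases, the whole span of the gene. Scaled to the length of the longest coding transcript, the level of Irf2 was 22.6 FPKM with IL-36β and 23.4 FPKM in untreated cells. That of Irf1 was 28.2 FPKM with IL-36β and 14.4 FPKM in untreated cells, so levels between genes depend on the length chosen.

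**Figure D4:**
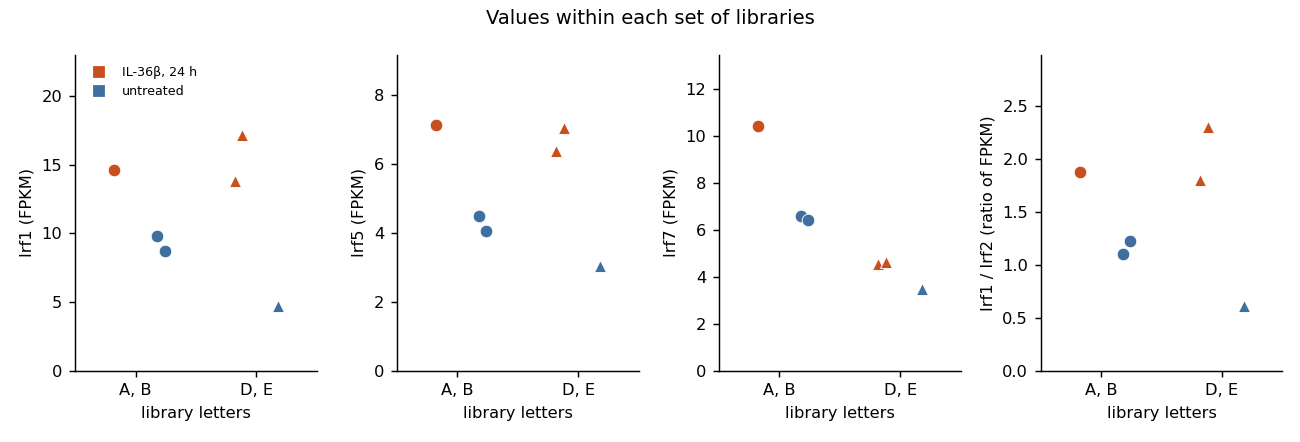
Irf1, Irf5 and Irf7 in FPKM and the ratio of Irf1 to Irf2, by library letters (A and B at left, D and E at right in each panel), with IL-36β libraries in orange and untreated libraries in blue. In each set and each panel the IL-36β libraries lie above the untreated ones, and Irf7 is lower in both groups of the D and E libraries.

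The genes whose values over the 6 libraries were most like those of Irf1, out of 6697 candidates with a mean of at least 5 FPKM, were Ltc4s (leukotriene C4 synthase, 0.126), Relb (a subunit of NF-κB, 0.149) and Tmem176a (0.161). Relb was 13.5, 13.6 and 16.2 FPKM with IL-36β, against 9.59, 8.92 and 6.09 FPKM in untreated cells. For Irf5 they were Clec2d (0.0739), the interferon-γ receptor chain Ifngr1 (0.0760) and Spry4 (0.0890). For Irf7 they were Oas1a, an interferon-stimulated antiviral enzyme (0.137), Pnrc1 (0.148) and Cmtm8 (0.150). The figure in brackets is the root mean square difference of log2(FPKM + 0.5), each gene centred on its mean of the 6 libraries; a ranking over 6 libraries is a description.

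The kinases, sensors and adaptors that activate IRFs had differences centred near 0, with Ikbke far from the rest. Of 22 listed genes of IRF activation, all in the table, 19 were measured and none passed in limma or edgeR. Their median log2 difference was 0.06, against 0.00 over all genes tested. Ikbke alone had an unadjusted limma p under 0.05, against 10.4% of all genes. It was also the 1 gene that DESeq2 called, against 2.1% of all genes. Ikbke, which encodes IKKε, was 4.74, 2.78 and 2.26 FPKM with IL-36β, against 1.07, 0.892 and 0.440 FPKM in untreated cells. Every IL-36β library lay above every untreated library, a 2.85-fold difference (1.79 to 4.53, limma adjusted p = 0.131). Ikbke passed with the set as a term (3.37-fold, limma adjusted p = 0.00593), in a model that called 0.808% of all genes. Its relative Tbk1 was 13.2 ± 0.771 FPKM with IL-36β and 13.7 ± 0.554 FPKM in untreated cells (SD, n = 3 each; limma adjusted p = 0.865). Tbkbp1, an adaptor of TBK1, was the most abundant of the list, at 34.2 ± 3.35 FPKM with IL-36β and 32.5 ± 3.00 FPKM in untreated cells. Tlr4, the lipopolysaccharide receptor, was next in untreated cells, at 23.1 ± 0.965 FPKM, and was 21.3 ± 2.01 FPKM with IL-36β. The sensor Ddx58 was next with IL-36β, at 22.5 ± 2.27 FPKM, and was 19.9 ± 3.41 FPKM in untreated cells (SD, n = 3 each).

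Interferon transcripts themselves were scarcely detected, while their receptors were. Of 10 listed interferon genes 7 had no read in any library. Ifnb1, which encodes interferon-β, had 0 reads in the IL-36β libraries and 0, 2 and 3 in untreated replicates 1 to 3; a count of 0 still allows up to 3 reads per library. The 5 measured receptor chains, Ifnar1, Ifnar2, Ifngr1, Ifngr2 and Il10rb, each had higher values in every IL-36β library than in any untreated library, against 8.95% of all genes. Each had an unadjusted limma p under 0.05 with IL-36β higher, against 5.96% of all genes. DESeq2, which called 2.1% of all genes, called Ifngr1, and none of the 5 passed after adjustment in limma or edgeR. Their median log2 difference was 0.49, and it was 0.33 within A and B and 0.61 within D and E. Ifngr1 was 61.5, 52.9 and 65.4 FPKM with IL-36β, against 44.1, 39.2 and 31.2 FPKM in untreated cells (1.57-fold, 1.24 to 1.99; limma adjusted p = 0.193), and Ifnar1 was 31.2, 30.7 and 39.3 FPKM, against 26.9, 23.3 and 21.5 FPKM (1.40-fold; limma adjusted p = 0.279). Apart from Ifngr1 these genes lie in 1 stretch of chromosome 16, between 91372783 and 91565623.

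JAK-STAT genes and IRF partners showed no member past the threshold in limma or edgeR. All 10 JAK-STAT genes were measured (median log2 difference 0.09). Of these, 2 had an unadjusted limma p under 0.05, against 10.4% of all genes, and DESeq2 called Socs3, against 2.1% of all genes. Jak1 was 31.5 ± 1.07 FPKM with IL-36β and 31.2 ± 0.622 FPKM in untreated cells, and Socs3, a feedback inhibitor of cytokine receptors, was 31.3 ± 11.3 FPKM with IL-36β and 18.1 ± 3.30 FPKM in untreated cells (limma adjusted p = 0.385). Of 12 IRF partners and corepressors 7 were measured (median log2 difference 0.09; none at an unadjusted p under 0.05 and none in DESeq2). Irf2bpl was 24.9 ± 6.03 FPKM with IL-36β and 19.8 ± 1.95 FPKM in untreated cells, Irf2bp1 was 11.4 ± 1.96 and 10.7 ± 2.04 FPKM, and Irf2bp2, a corepressor that binds Irf2, was 6.44 ± 1.05 and 5.57 ± 0.121 FPKM, each with IL-36β and without.

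Among genes known from other work as Irf1 targets, a few of antigen presentation and a chemokine passed the test. This list, like the other lists, was chosen with earlier results of these data known. Its counts beside the shares of all genes are thus a description. Of 21 listed, 19 were measured and 3 passed, all higher, where 0.182% of all genes passed in either direction: Psmb10, a catalytic subunit of the immunoproteasome, Tapbp, the peptide-loading chaperone tapasin, and the chemokine Ccl5. All 19 fitted differences were above 0, where 50.5% of all genes were. The median log2 difference was 0.56, and it was 0.66 within A and B and 0.87 within D and E. In 10 of the 19 every IL-36β library lay above every untreated library, against 8.95% of all genes. Others were near 1-fold and overlapped, among them Tap1 (1.03-fold) and B2m (1.04-fold), which also act in antigen presentation. Psmb10 was 18.8, 16.3 and 20.99 FPKM with IL-36β, against 8.74, 8.08 and 6.45 FPKM in untreated cells, a 2.33-fold rise (1.85 to 2.93; limma adjusted p = 0.0322). Tapbp was 63.6, 53.0 and 68.9 FPKM with IL-36β, against 33.2, 30.7 and 30.4 FPKM in untreated cells, a 1.94-fold rise (1.61 to 2.34; limma adjusted p = 0.0359). Ccl5 had 63 reads in the IL-36β and 4 in the untreated libraries. It reached 0.5 FPKM in the IL-36β libraries alone, so it entered the test only through the group where it was higher. Its place among the 3 is thus a description and no support. edgeR called 2 of the 19 (Psmb10 and Tapbp), limma with the set term 6 and DESeq2 7, all higher, against 0.293%, 0.808% and 2.1% of all genes. With any 1 of the 6 libraries left out, none of Psmb10, Tapbp and Ccl5 passed (limma adjusted p up to 0.161, 0.190 and 0.161), while the fold over all alternatives was 2.14 to 2.49 for Psmb10 and 1.82 to 2.09 for Tapbp. For Ccl5, with few untreated reads, it was 2.13 to 16.1 and depended on the setting. Psmb9, another immunoproteasome subunit, was 3.37 ± 0.590 FPKM with IL-36β and 2.31 ± 0.743 FPKM in untreated cells (limma adjusted p = 0.511), and Nlrc5, the MHC class I transactivator, was 1.997 ± 0.220 FPKM with IL-36β and 1.84 ± 0.590 FPKM in untreated cells (limma adjusted p = 0.854). Many of these genes also answer to NF-κB, and these data do not separate the factors.

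Among targets of ISGF3, the complex of Irf9, 7 of the 17 measured differed between the sets of libraries (limma adjusted p under 0.05, against 1.74% of all genes), all lower in D and E, and the other 10 did not pass. Between IL-36β and untreated cells none passed. Of 20 listed, 17 were measured, and none had an unadjusted p under 0.05 or a call in edgeR or DESeq2. Their median log2 difference was 0.29, and it was 0.50 within A and B and 0.45 within D and E. The median log2 difference of D and E from A and B was -0.81, and for the Irf1 targets it was -0.46. In the model with the set Isg15, Ifit3 and Oasl2 were called higher, against 0.808% of all genes; they are named because that model called them. Bst2, a tethering antiviral protein, was 209 ± 43.8 FPKM with IL-36β and 161 ± 23.8 FPKM in untreated cells, and Isg15, a ubiquitin-like modifier, was 44.6 ± 23.5 FPKM with IL-36β and 29.9 ± 11.0 FPKM in untreated cells.

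**Figure D5:**
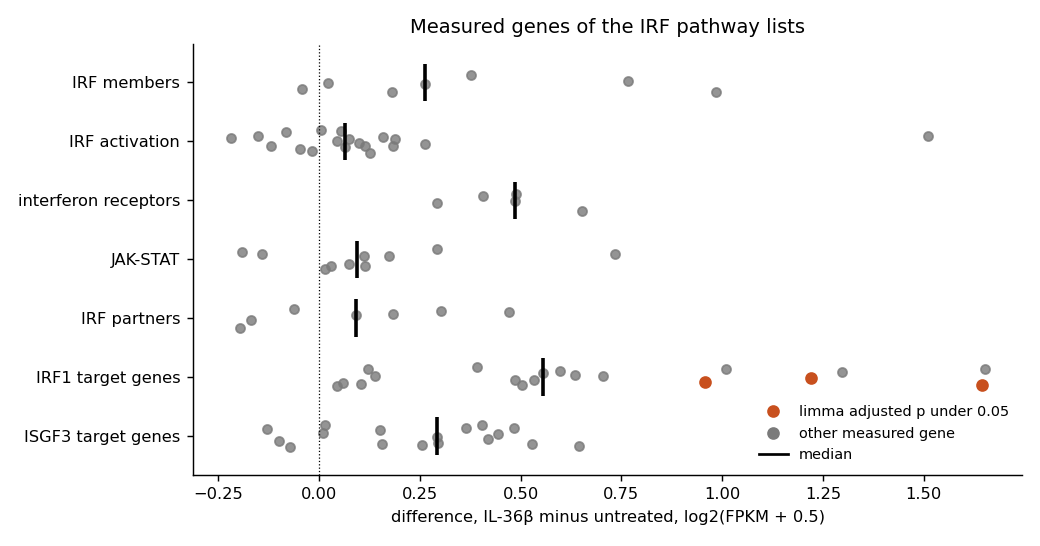
Difference of mean log2(FPKM + 0.5), IL-36β minus untreated, for each measured member and each measured gene of the 6 lists; points are genes, orange points passed limma at an adjusted p under 0.05 and black bars are medians. Orange points appear in the list of Irf1 target genes alone (Psmb10, Tapbp and Ccl5), whose median is 0.56, while the list of IRF activation is centred at 0.06. Ccl5 passed the filter on low values through its IL-36β libraries alone.

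In the authors' deposited table of 660 genes at an unadjusted p under 0.05, 2 members appear, both higher: Irf5 with a log2 fold change of 0.77 (p = 0.0442) and Irf1 with 0.64 (p = 0.0486). The adjusted p is 0.999 for these and for every gene of that table, whose group means are not those of the 3 libraries per group used here. The authors' deposited table of gene ontology terms, named for genes higher with IL-36β, holds 4931 terms, of which 407 have an adjusted p under 0.05. In the authors' deposited table Irf1 is listed in 183 terms, 124 of them among the 407, including the responses to interleukin-1 and to interferon-γ, and Irf5 in 8, 6 of them among the 407.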

How the data were processed

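Poly(A) libraries were made with a stranded kit and sequenced on an Illumina instrument, per the labels' protocols. Per the submitters' processing notes, build GRCm38 was used with HISAT2 2.05, featureCounts 1.50-p3, fastp, DESeq2 1.38.3 and StringTie, whose roles are not given. The authors deposited FPKM for 54532 genes, and for 660 genes raw counts, normalized counts (a signal, counts divided by a size factor), log2 fold changes and p-values. Another 8 per-library columns match no sample label and were left out. FPKM times length gave whole reads (100% of values within 0.01), equal to the deposited counts wherever both exist; at 1 kb, 1 FPKM is 15.4 to 20.3 reads, so a low member such as Irf4 rests on few reads.

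Groups were taken from the sample titles and columns matched by library name. Groups were compared two-sided on log2(FPKM + 0.5) in limma 3.58.1 under R 4.3.3, using its intensity-trended variance prior, for genes reaching 0.5 FPKM in 3 or more libraries, adjusted by Benjamini-Hochberg over 12618 genes, with a threshold of 0.05; it was tested on simulated data. The pseudocount understates the change of low genes. edgeR 4.0.16 and DESeq2 1.42.0 were run on recovered reads. The members, the lists, the naming rule and the library sets were chosen with earlier results of these data known. The rule names all members, list genes past the threshold (or the 2 most abundant), 11 fixed genes (1 is not reported here) and the 3 genes most like a member; other genes were chosen after their values were seen. All 152 listed symbols matched, 3 through older symbols. Promoter windows are from RefSeq (GRCm38.p6) and matched all 8 members.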

Additional observations from a re-analysis of the deposited data

How the results depend on the processing

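No member passed the threshold in limma on 6 libraries, and this held under 18 of 20 alternatives; DESeq2 on recovered reads called 2 members (Irf1, Irf5) and limma with the library set as a term called 1 (Irf5), for causes that were not tested. Leaving out each library in turn gave 0 members every time. Irf1, Irf3, Irf5 and Irf8 stayed above 0 in all 20 alternatives, with a lowest and highest log2 difference of 0.68 and 1.17 for Irf1 and 0.62 and 0.87 for Irf5. Irf2 (-0.12 to 0.04), Irf7 (-0.18 to 0.50) and Irf9 (-0.09 to 0.13) changed sign without passing on either side. The log2 ratio of Irf1 to Irf2 differed by 0.77 to 1.27 when each library was left out, by 0.69 within A and B and by 1.74 within D and E. The count over all genes was 23 in the main test, 0 with no filter on low values, 13 with the replicate block, 37 with edgeR, 78 with the library letter as a block, 102 with the library set and 260 with DESeq2; it was 2 to 8 when each library was left out.

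Psmb10 and Tapbp each passed under 12 of 20 alternatives and Ccl5 under 9; none of the 3 passed with a library left out, with no filter or with the replicate block, and Ccl5 also failed with edgeR, a pseudocount of 0.1 and the letter block. The deviations of same-numbered libraries had correlations of 0.21, -0.14 and 0.21 for numbers 1 to 3, and not every library was closest to its own number. With 3 libraries per group these correlations cannot show whether the numbers mark shared cultures. The main test used no pairing, and the replicate block left 0 members past the threshold. The letters A and D occur in both groups, and the labels do not say whether they mark shared cultures. The correlation was 0.21 for IL-36β replicate 1 with untreated replicate 1 (A) and 0.28 for IL-36β replicate 2 with untreated replicate 3 (D). It was higher, at 0.39, for IL-36β replicate 1 (A) with untreated replicate 2 (B), which differ in letter. The letter block rests on A and D, since B and E do not occur in both groups. With it the log2 difference was 1.01 for Irf1, 0.79 for Irf5 and 0.49 for Irf7. It was 0.24 for Irf3 and 0.01 for Irf8. At these depths Irf4 could not be compared.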
